A study of Mus musculus with 12 samples.

Results

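The miRNAs numbered miR-297, miR-466, miR-467 and miR-669 form a rodent family, most of whose hairpins are packed into 1 intron of the Polycomb-group gene Sfmbt2. Its members were taken by name from the count table, as every feature whose first name carries 1 of these 4 numbers, with any letter and arm and with a merged name taken as 1 row. This gave 54 of the 1995 features, which together carry 64 mature names because 8 rows merge miRNAs that could not be told apart. The numbers contributed unequally, with 3 rows of miR-297, 21 of miR-466, 10 of miR-467 and 20 of miR-669. By arm, 23 rows were 5p, 21 were 3p and 10 carried no arm.

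Small RNAs were sequenced from blood extracellular vesicles (bEVs) in the sera of 6 Rag1-/- mice that had received T cells systemically and of 6 Rag1-/- mice that had received medium, with 1 library per mouse. Rag1-/- mice have no mature T or B cells, and both groups carry this deletion, so B cells were missing in both. The study describes male mice on a C57BL/6 background, used at 8 to 12 weeks of age unless stated otherwise, and donor T cells from WT spleens that were injected retro-orbitally. A serum bEV preparation pools vesicles of many tissues, so more vesicles from a cell type and more miRNA per vesicle cannot be told apart, nor can the number of cells and the RNA of each cell.

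In mice, Sfmbt2 is an imprinted gene that is expressed from the paternal allele in the placenta and early embryo. The miRNA cluster in its intron arose by repeated duplication in rodents, is known from mouse embryonic stem cells and trophoblast, and is needed for a normal mouse placenta. A hairpin can give a mature miRNA from its 5p or its 3p arm, and the bases 2 to 8 of the mature miRNA, its seed, do most of the pairing with target mRNAs. Several members have been studied outside the embryo, among them miR-669 members that act on MyoD in mouse progenitor cells and miR-466l, which stabilises Il10 mRNA in mouse macrophages.

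In GRCm38 with the GENCODE annotation, Sfmbt2 lies on the plus strand of chromosome 2 from 10370510 to 10595253. Of 81 annotated hairpins with the 4 numbers, 71 lie in this gene, and all 71 lie in intron 10 of the 22 introns of Sfmbt2-201, within 51.6 kb. The other 10 hairpins lie elsewhere. The family name is therefore true of most rows but not of all. For 44 rows every hairpin is in Sfmbt2, for 2 rows (both of miR-297a) hairpins lie in Sfmbt2 and on chromosome 7, and for 8 rows every hairpin lies outside Sfmbt2. These 8 rows are miR-466i-3p and miR-466i-5p in an intron of Cdk13, miR-466k, miR-466q and miR-669n in introns of Gm37240, Tnik and Slc30a7, miR-467f in an intron of Fxr2, and the intergenic miR-466j and miR-467h. Among the introns only that of Tnik is on the same strand as its hairpin.

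Mature sequences of 7 of the 64 names were found in RefSeq for GRCm38.p6, all of them from hairpins outside Sfmbt2. The 4 below belong to the most abundant rows among these and show simple repeats, with the seed in capitals.
miR-467f: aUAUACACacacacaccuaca
miR-466i-3p: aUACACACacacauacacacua
miR-466k: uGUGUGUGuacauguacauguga
miR-669n: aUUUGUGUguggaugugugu
miR-467f lies on the minus strand of chromosome 11 from 69635419 to 69635439, and miR-466i-3p on the plus strand of chromosome 13 from 17747552 to 17747573. miR-466k lies on the plus strand of chromosome 3 from 85467396 to 85467418, and miR-669n on the plus strand of the same chromosome from 115979905 to 115979924. The first pair are AC repeats and the second pair UG repeats, 2 forms that are close to each other's complement. All 7 sequences contain ACACAC or UGUGUG on the strand of the miRNA, which 31 of the 1671 other mature names in that table do (1.86%). No 2 of the 7 share a seed. The longest run of alternating purines and pyrimidines was 8 to 22 bases in the 7 (median 20), against a median of 4 in the other names.

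The family made up a small and thinly counted part of the bEV libraries. Its rows summed to 6866 counts in the 12 libraries, which is 0.63% of all counts, with 3427 counts in T cell recipients and 3439 counts in medium recipients. Library totals ranged from 75475 to 130106 counts with T cells and from 48997 to 116048 counts with medium. The 12 miRNAs chosen as markers of red cells, platelets and myeloid cells, lymphocytes, endothelium, liver and muscle had at least 4 counts in every library. In 2 libraries, those of T cell replicate 2 and of medium replicate 3, every count is either 0 or at least 10, unlike in the other 10. At these totals a count of 0 allows up to 3 counts, which is 23.1 to 61.2 per 1000000 of the unscaled library total. These limits cover counting error only. In the 2 libraries without counts from 1 to 9, whether a 0 stands for such counts was not tested, so their limits may be higher. Values in CPM below are counts per 1000000 of a scaled library size, at which 1 count is 8.43 to 16.9 CPM.

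At the level of single rows, the median mean count of the members was 7.75, against 22.3 over all features. Of 648 entries (54 rows in 12 libraries), 254 were 0, 83 were from 1 to 9, 207 were from 10 to 19 and 104 were 20 or more. Zero entries made up 39.5% in T cell recipients and 38.9% in medium recipients. Among the other features they made up 12.4% in T cell recipients and 10.3% in medium recipients. A member was found in a median of 7.5 libraries, 13 members were found in all 12, and 7 were found in a single library. Of these 7 rows, 4 were seen in T cell replicate 2 (miR-466a-5p/miR-466p-5p, miR-466i-5p, miR-466l-5p and miR-466o-3p), 2 in medium replicate 3 (miR-466b-5p/miR-466o-5p and miR-669o-5p) and 1 in medium replicate 6 (miR-466b-3p/miR-466c-3p/miR-466p-3p), with 10 to 21 counts. The library with T cell replicate 2 thus held most of the rows seen once, while none of its own counts is below 10, and whether these facts are linked was not tested.

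**Figure D1:**
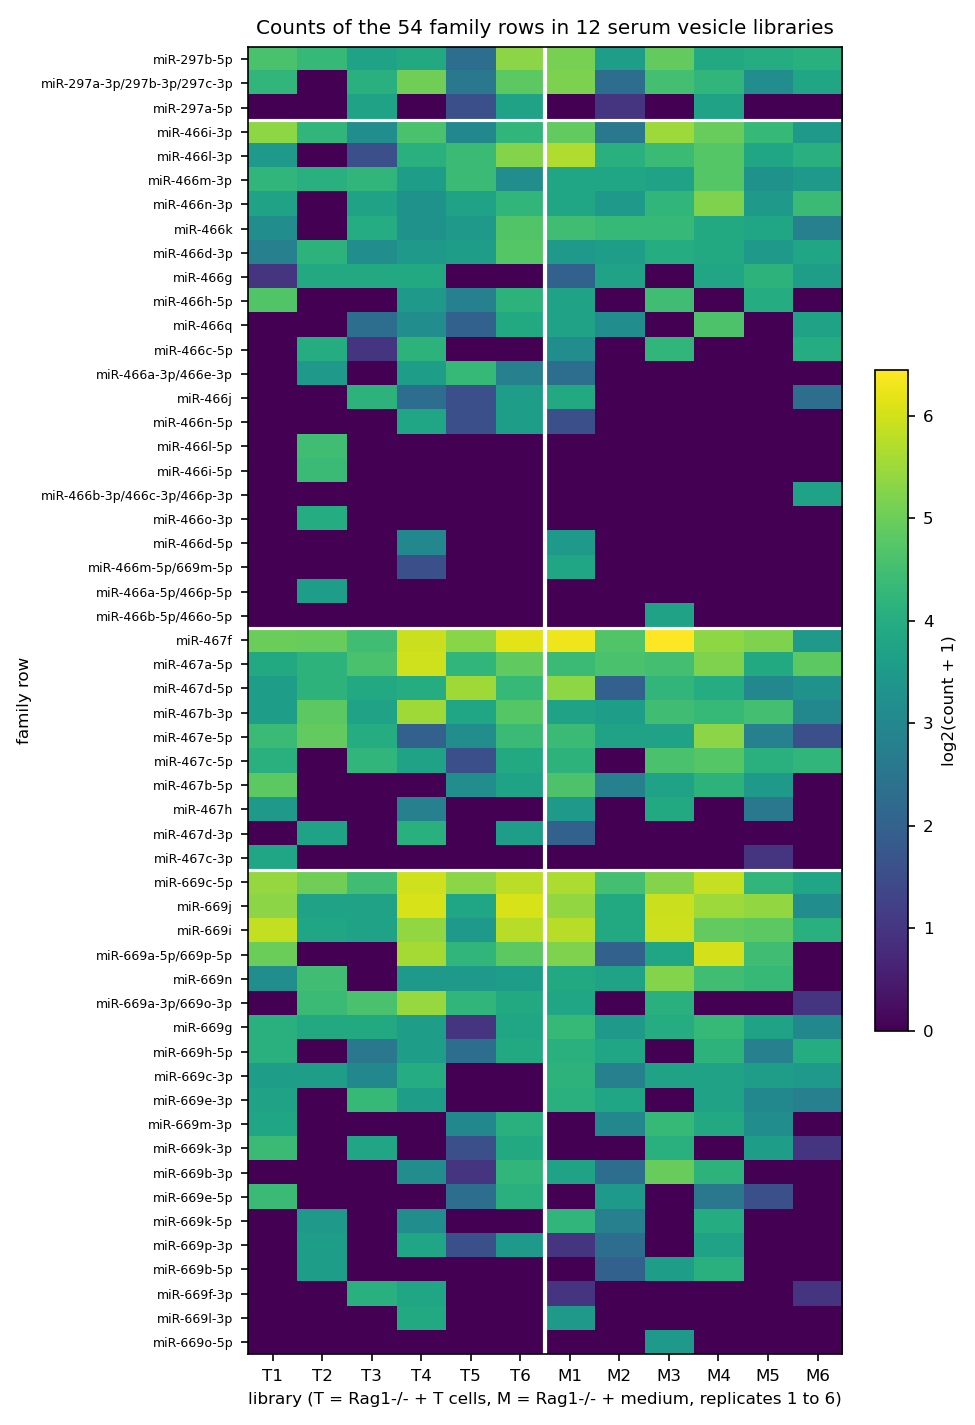
Counts of all 54 family rows (vertical axis, grouped by number and ordered by mean CPM) in the 6 T cell libraries (T1 to T6, left) and the 6 medium libraries (M1 to M6, right), coloured by log2(count + 1). A few rows such as miR-467f and miR-669c-5p are filled in all 12 libraries, and 7 rows are filled in 1 library.

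The share of each library taken by the family overlapped between the groups. It was lowest at 0.356% (95% Wilson interval 0.325 to 0.39%), with a median of 0.582% and a highest value of 0.784%, in T cell recipients. In medium recipients it was lowest at 0.516%, with a median of 0.671% and a highest value of 0.779%. The groups overlapped, since 3 T cell libraries lay below every medium library and 1 lay above all of them. The mean share was 0.588 ± 0.179% in T cell recipients, against 0.667 ± 0.0936% in medium recipients (SD, n = 6 each), a difference of -0.0793 percentage points that was not tested because it sums over the members. The sign of this difference depended on the denominator. Against library sizes scaled by the trimmed mean of M values (TMM), the means were 0.657 ± 0.114% with T cells and 0.601 ± 0.122% with medium, a difference of 0.0556 points. The TMM factors themselves differed between the groups, with a mean of 0.894 with T cells and 1.14 with medium. In 5 T cell libraries the factor lay below that of every medium library. The CPM and the main fold changes below rest on these factors. The lowest share belonged to T cell replicate 2, which also had the highest total and the lowest TMM factor (0.668), and without it the difference of the mean shares was -0.0329 points.

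**Figure D2:**
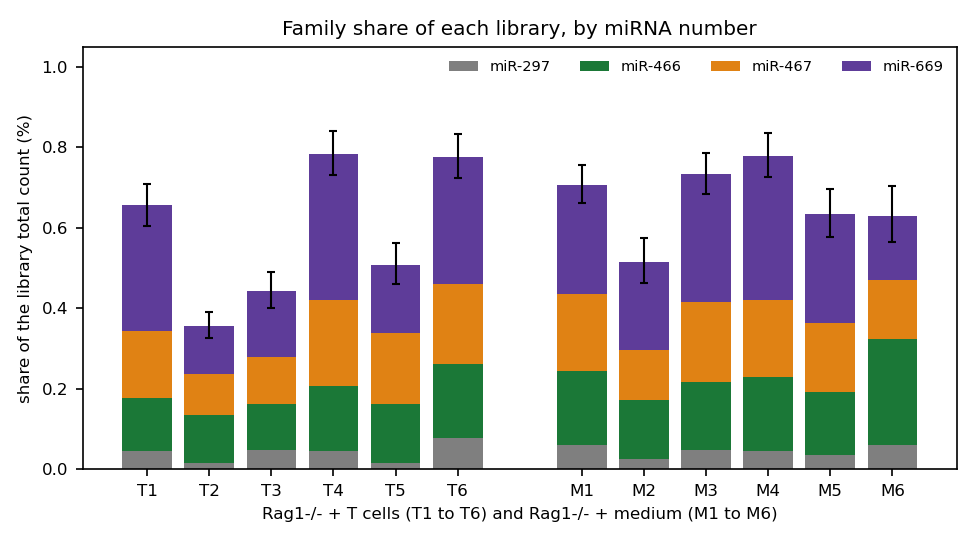
Share of the total count of each library (vertical axis, in percent) taken by the family, stacked by miRNA number, for 6 T cell libraries (left) and 6 medium libraries (right), with 95% Wilson intervals of the whole share. The whole share runs from 0.356% to 0.784% with T cells and from 0.516% to 0.779% with medium.

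By number, miR-669 took 0.241 ± 0.102% of the counts with T cells and 0.266 ± 0.0703% with medium, the largest part of the family in both means. miR-467 took 0.162 ± 0.044% with T cells and 0.171 ± 0.029% with medium. miR-466, which has the most rows, took 0.144 ± 0.0271% with T cells and 0.184 ± 0.0416% with medium, and miR-297 took 0.0402 ± 0.0232% with T cells, against 0.045 ± 0.0137% in medium recipients (SD over 6 libraries per group). For each number the groups overlapped. Rows with every hairpin in Sfmbt2 took 0.465 ± 0.142% with T cells and 0.512 ± 0.0705% with medium, and the 8 rows from elsewhere took 0.101 ± 0.0291% with T cells and 0.133 ± 0.0358% with medium. The single most abundant row, miR-467f, was among these 8.

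The number of copies of a hairpin that are annotated under its name did not go with its level. Only such named hairpins were counted here. Another 48 miRNA genes annotated in Sfmbt2 carry Gm names, and whether they hold further copies was not tested. Among the 44 rows with all hairpins in Sfmbt2, the Spearman correlation of copies and mean CPM was -0.15, given as a description because the rows share libraries and some share hairpins. The 33 rows with 1 hairpin had a median mean CPM of 100.7, and the 11 rows with more had 53. The row miR-467a-5p comes from 10 identical-named hairpins and had a mean of 25.3 counts, while miR-466b-3p/miR-466c-3p/miR-466p-3p comes from 11 and had 1. miR-669c-5p, the most abundant row of the intron with 37.2 counts, comes from 1 hairpin. Position in the intron ordered the levels as little, with a Spearman correlation of 0.19 between distance from the start of Sfmbt2 and mean CPM over the 33 single-hairpin rows.

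**Figure D3:**
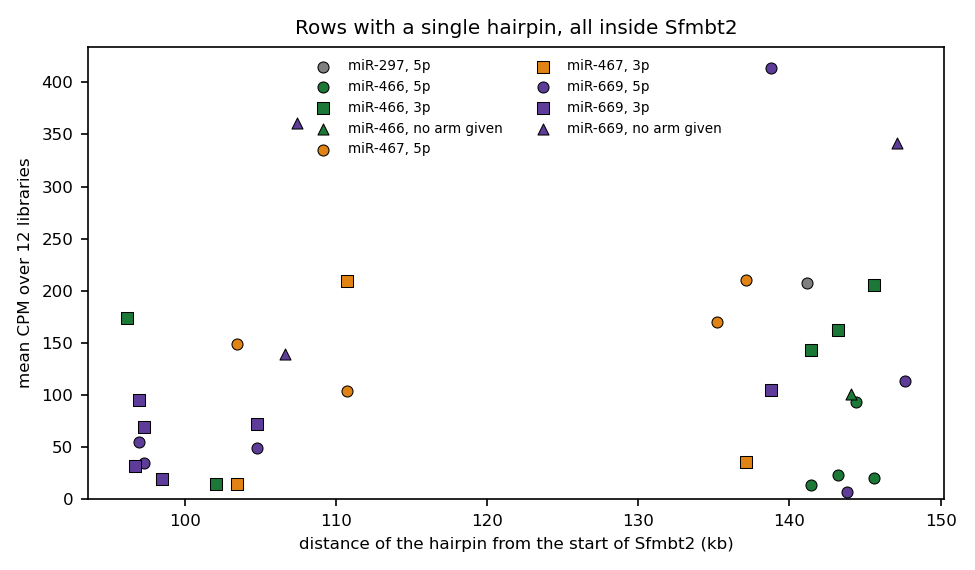
Mean CPM over 12 libraries (vertical axis) against distance of the hairpin from the start of Sfmbt2 in kb (horizontal axis) for the 33 rows with 1 named hairpin, coloured by number and shaped by arm. The hairpins fill 96.2 to 147.6 kb with a gap that holds the repeated miR-467a and miR-669a hairpins, and miR-669c-5p, miR-669j and miR-669i stand above the other rows at 414, 361 and 342 CPM.

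Both arms were counted as rows for 23 hairpin names. The 3p row had the higher summed count for 15 of these names and the 5p row for 7, and 1 was equal, with some rows shared between names. For miR-466 the 3p row was higher for 8 of 10 hairpin names, with miR-466l at 226 counts in 3p and 21 in 5p and miR-466i at 251 in 3p and 20 in 5p. For miR-669 the 3p row was higher for 5 of 8, and the 5p row for the most abundant of them, miR-669c, with 447 counts in 5p and 112 in 3p. The numbers were not compared by a test, and many of these arms had few counts. No hairpin had a mean of at least 20 counts in both arms, so the ratio of the arms was not compared between T cell and medium recipients.

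Counts were then compared with the quasi-likelihood test of edgeR, after TMM scaling and a filter on low counts. Of 54 members, 27 passed the filter, against 1720 of all 1995 features, so what follows covers the better counted members only. No member had a Benjamini-Hochberg adjusted p under 0.05, and neither did any other feature, so that both the higher and the lower calls were 0% of the features tested. At an unadjusted p under 0.05, edgeR gave 1 of the 27 members, against 120 of the 1720 features (6.98%). DESeq2, which the study's methods name, called none of the 54 members, against 44 of the 561 features to which it gave an adjusted p (7.84%), and only 2 members (miR-467f and miR-669c-5p) received one. At an unadjusted p under 0.05, DESeq2 gave 2 members, against 155 of the 1984 features for which it computed a p (7.81%). No member had groups that did not overlap, against 5 of the 1720 tested features (0.291%).

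The 27 tested members leaned to neither side. Their median log2 fold change, T cells over medium, was -0.07, with 12 above 0 and 15 below, and the median over all 1720 features was -0.05, with 778 above 0 and 942 below. With total counts as the scaling these medians were -0.36 for the members and -0.38 for all features, so relative to all features the members stayed where they were. By number, the median was 0.00 for the 2 tested rows of miR-297, -0.38 for 7 of miR-466, 0.21 for 7 of miR-467 and -0.14 for 11 of miR-669. By arm, it was 0.04 for 9 rows of 5p, -0.08 for 11 of 3p and -0.14 for 7 without an arm. The 22 tested rows inside Sfmbt2 had a median of -0.03, and the 4 tested rows outside it had -0.23. The median standard error of a single member was 0.62, larger than the median standard error of all features, 0.37. It describes the error of 1 row and not that of a median over rows, and the differences between these medians were not tested.

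**Figure D4:**
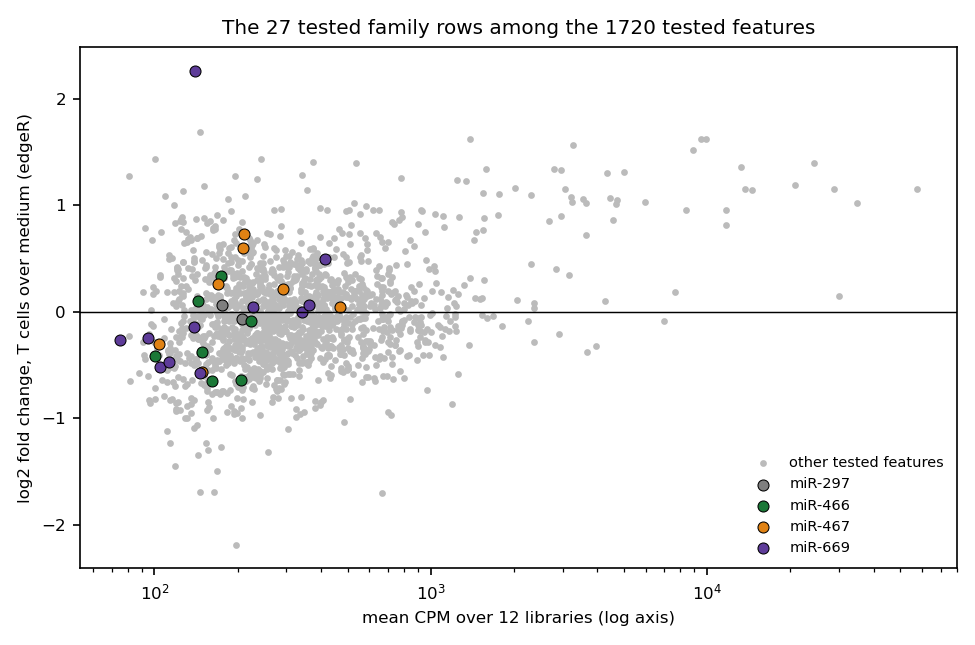
Log2 fold change, T cells over medium, from edgeR (vertical axis) against mean CPM on a log axis (horizontal axis) for the 1720 tested features in grey and the 27 tested family rows in colour by number. The family rows lie at the low end of the levels with fold changes from -0.65 to 0.73, except 1 miR-669 row at 2.26.

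miR-669a-3p/miR-669o-3p was the member with the lowest p. Its row merges the 3p arms of 12 miR-669a hairpins and of miR-669o in Sfmbt2. It had a lowest value of 0, a median of 268 and a highest value of 443 CPM in T cell recipients, against 0, 7.84 and 139 CPM in medium recipients. It was found in 5 of 6 T cell libraries and 3 of 6 medium libraries, and 4 T cell libraries lay above the highest medium library, so the groups overlapped. The log2 fold change was 2.26 (SE 1.03, 95% interval 0.10 to 4.43), the highest of all 1720 features, with an unadjusted edgeR p of 0.041 and an adjusted p of 0.673 (range over the alternatives 0.394 to 0.998). DESeq2 gave a log2 fold change of 2.32 and an unadjusted p of 0.0187, with no adjusted p. When 1 library was left out in turn, the unadjusted edgeR p was under 0.05 in 5 of 12 fits and reached 0.114 without T cell replicate 4. In the same fits by DESeq2 it was under 0.05 in 9 of 12 and ran from 0.00259 to 0.131. The log2 fold change ran from 2.00 without T cell replicate 4 (edgeR) to 3.07 without medium replicate 3 (DESeq2). It was 3.25 with the replicate number as a block in edgeR. No member had an unadjusted edgeR p under 0.05 with that block, with total counts, or with counts from 1 to 9 set to 0. With T cell replicate 2 and medium replicate 3 left out together, this row did not pass the filter of edgeR. The largest counts behind this row are 43, in T cell replicate 4, and 16, in medium replicate 3, so the row rests on few counts.

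The 5p arm of the miR-669a hairpins had a fold change near 0. Its row, miR-669a-5p/miR-669p-5p, which also holds miR-669p, was at 0, 266 and 485 CPM (lowest, median and highest) in T cell recipients and at 0, 182 and 594 CPM in medium recipients. Its log2 fold change was 0.04 (SE 0.83, edgeR adjusted p = 0.996), with a 95% interval of -1.69 to 1.78 that leaves room for a change of either sign. The difference between the 2 arms was not tested. Another merged 3p row, miR-466a-3p/miR-466e-3p, was singled out after its values were seen, since DESeq2 gave it an unadjusted p of 0.0468 and no adjusted p. It had 0, 8 and 19 counts (lowest, median and highest) in T cell recipients, while in medium recipients 5 libraries had none and medium replicate 1 had 4. It did not pass the filter of edgeR.

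The most abundant members were the best measured. miR-467f, from the intron of Fxr2, was at 288, 493 and 640 CPM (lowest, median and highest) in T cell recipients and at 157, 400.2 and 747 CPM in medium recipients. Every T cell value lay within the range of the medium values. Its log2 fold change was 0.05 (SE 0.33, 95% interval -0.64 to 0.74, edgeR adjusted p = 0.99). miR-669c-5p, the leading row of the Sfmbt2 intron, was at 288, 484 and 657 CPM in T cell recipients and at 204, 320.3 and 538 CPM in medium recipients. In it 2 T cell libraries lay above all medium libraries, and the log2 fold change of 0.50 (SE 0.29, 95% interval -0.11 to 1.11) had an edgeR adjusted p of 0.918 and a DESeq2 adjusted p of 0.373.

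miR-669j and miR-669i, both named without an arm, came next in level. miR-669j was at 140, 347 and 670 CPM in T cell recipients and at 125, 389 and 521 CPM in medium recipients, with a log2 fold change of 0.07 (SE 0.40). miR-669i was at 151, 296 and 695 CPM in T cell recipients and at 203, 295 and 530 CPM in medium recipients, with a log2 fold change of 0.00 (SE 0.38). In both rows the T cell libraries fell into 3 lower and 3 higher values, and the 3 lower values of miR-669i (T cell replicates 2, 3 and 5) were below every medium library. The same 3 libraries had the lowest family shares among T cell recipients.

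**Figure D5:**
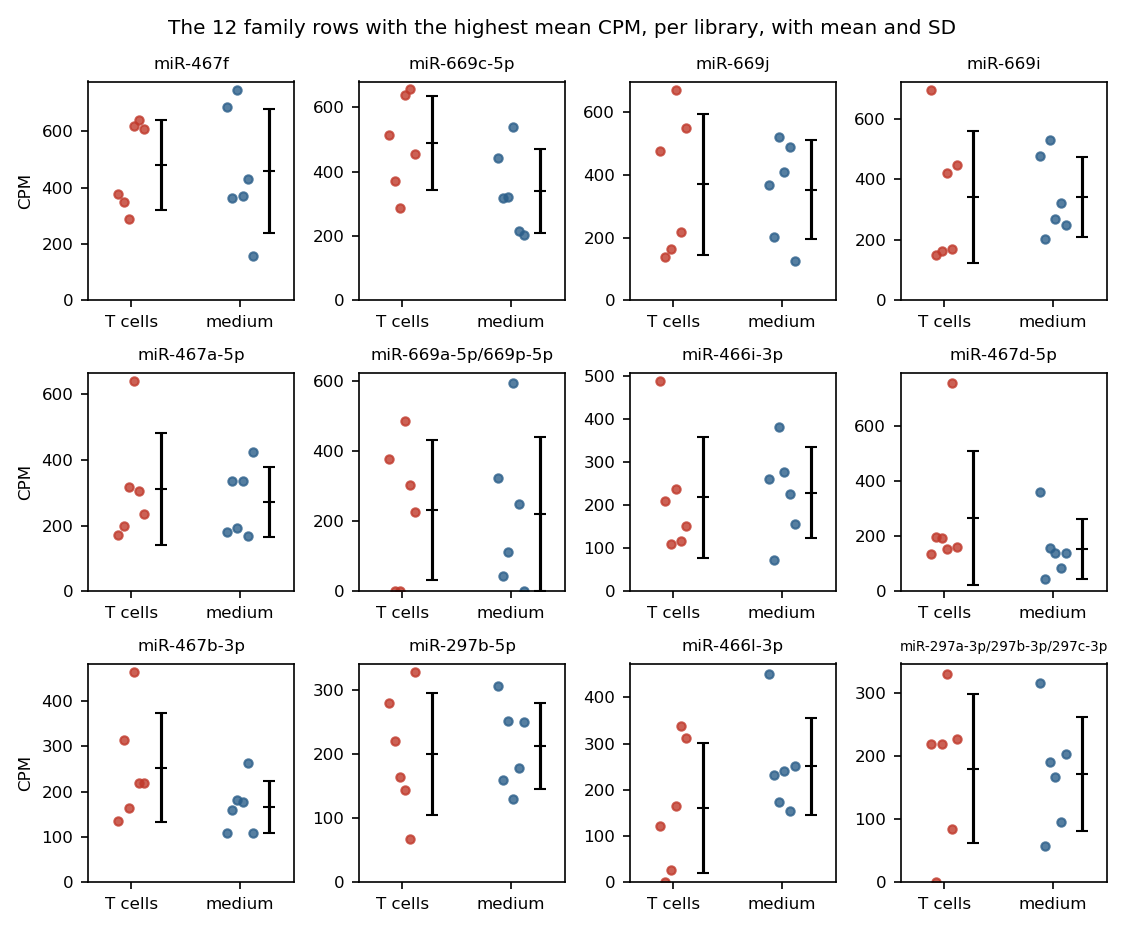
CPM (vertical axes) of the 12 tested family rows with the highest mean level, with 1 point per library for T cell recipients (left, red) and medium recipients (right, blue) and the mean with SD beside them (n = 6 each). In every panel the points of the 2 groups overlap.

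4 further rows of miR-467 from Sfmbt2 were named for their level or fold change. miR-467a-5p was at 171, 270 and 639 CPM in T cell recipients and at 167, 262 and 424 CPM in medium recipients, with a log2 fold change of 0.21 (SE 0.36). miR-467d-5p was at 134, 176 and 758 CPM in T cell recipients and at 43.5, 140 and 360 CPM in medium recipients, with a log2 fold change of 0.73 (SE 0.53), the highest after miR-669a-3p/miR-669o-3p. The highest T cell value belonged to replicate 4 for miR-467a-5p, whose log2 fold change was -0.15 without that library. For miR-467d-5p it belonged to replicate 5, and the log2 fold change was 0.11 without that library (edgeR). Without medium replicate 1 it was 1.19, with an unadjusted edgeR p of 0.0499 and an adjusted p of 0.747. miR-467b-3p was at 134, 219 and 464 CPM in T cell recipients and at 108, 168 and 262 CPM in medium recipients, with a log2 fold change of 0.60 (SE 0.40), and 2 T cell libraries lay above all medium libraries. miR-467c-5p was at 0, 121 and 247 CPM in T cell recipients and at 0, 195 and 282 CPM in medium recipients, with a log2 fold change of -0.57 (SE 0.81). Its T cell value of 0 was that of replicate 2. With any 1 library left out its log2 fold change ran from -0.95 to -0.31, the latter without T cell replicate 2 (edgeR). The 4 rows thus differed in sign, and each had an edgeR adjusted p of 0.967 or higher.

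Of the 7 rows of miR-466 that passed the filter, 5 lay below 0, against 942 of the 1720 features, and none was called. miR-466l-3p, from the hairpin studied in macrophages, was at 0, 143 and 337 CPM in T cell recipients and at 155, 237 and 450.3 CPM in medium recipients. In 3 T cell libraries it was below every medium library, and the log2 fold change was -0.64 (SE 0.62). miR-466n-3p, with the lowest fold change of the 27 members, was at 0, 149 and 202 CPM in T cell recipients and at 117, 151 and 334 CPM in medium recipients (log2 fold change -0.65, SE 0.65). Of the rows whose sequence is printed above, miR-466k was at 0, 133 and 211 CPM in T cell recipients and at 94.1, 160 and 276 CPM in medium recipients (log2 fold change -0.38, SE 0.67). miR-466i-3p was at 110, 181 and 488 CPM in T cell recipients and at 72.6, 244 and 382 CPM in medium recipients (log2 fold change -0.08, SE 0.44). Each of these 4 rows had an edgeR adjusted p of 0.99. No 5p row of miR-466 passed the filter, and the most abundant of the 9, miR-466h-5p, was at 0, 102 and 305 CPM in T cell recipients and at 0, 54 and 182 CPM in medium recipients.

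The rows of miR-297 and the last named row of miR-669 were not called either. miR-297b-5p was at 67.4, 193 and 329 CPM in T cell recipients and at 130, 215 and 306 CPM in medium recipients (log2 fold change -0.07, SE 0.41). The merged row miR-297a-3p/miR-297b-3p/miR-297c-3p was at 0, 220 and 330 CPM in T cell recipients and at 58.1, 179 and 315 CPM in medium recipients (log2 fold change 0.07, SE 0.64). miR-669n, whose UG repeat is printed above, was at 0, 100.4 and 244 CPM in T cell recipients and at 0, 185 and 321 CPM in medium recipients (log2 fold change -0.57, SE 0.79). The edgeR adjusted p was 0.99 or higher for these rows. For 6 of the 27 tested members the whole 95% interval lay within 1 log2 unit of 0 (miR-297b-5p, miR-466i-3p, miR-467a-5p, miR-467f, miR-669i and miR-669j). For the other 21 a change of more than 1 log2 unit in some direction was inside the interval, so at this depth a lack of change was not shown for them.

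Across the 12 libraries some of the leading rows went up and down together. The 7 members with a mean of at least 20 counts gave 21 pairs, whose Pearson correlations of log2(CPM + 10) ran from -0.417 to 0.843 with a median of 0.437. The strongest pair was miR-669a-5p/miR-669p-5p with miR-669j (Pearson r = 0.843, permutation p = 0.00115, adjusted over the 21 pairs 0.0242; Spearman rho = 0.634, permutation p = 0.0314, adjusted 0.132; n = 12). It was 0.758 without the 2 libraries farthest from the median, 0.837 within T cell recipients and 0.852 within medium recipients. The pair of miR-669i and miR-669j followed (Pearson r = 0.806, permutation p = 0.00298, adjusted 0.0313; Spearman rho = 0.72, permutation p = 0.0105, adjusted 0.0737), with 0.786 without the 2 farthest libraries, 0.899 within T cell recipients and 0.661 within medium recipients. No pair had an adjusted p under 0.05 by rank. The row miR-467a-5p had a negative correlation in 5 of its 6 pairs over all libraries, in 6 within medium recipients and in 2 within T cell recipients. The lowest unadjusted permutation p of its pairs over all libraries was 0.178 by Pearson and 0.184 by Spearman. All values share the scaling of their library, and its part in these correlations was not tested.

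The family was sparser than other clusters that are known from embryonic cells or from imprinted loci. The miR-290 cluster of embryonic stem cells had 18 rows with a median mean count of 17, of which 12 were tested (against 27 of 54 in the family). Their median log2 fold change was -0.07, edgeR called 0 of them, with 1 at an unadjusted p under 0.05, and DESeq2 called 1. The imprinted Dlk1-Dio3 cluster had 102 rows with a median mean count of 22.3, of which 86 were tested. Their median log2 fold change was -0.09, with 0 calls by edgeR (7 at an unadjusted p under 0.05). DESeq2 called 1 as lower, of 26 rows with an adjusted p. Over all features DESeq2 called 44 of 561 (7.84%), and the family had only 2 rows with an adjusted p. Of the miRNAs outside the family with ACACAC or UGUGUG, 29 rows were measured, with a median mean count of 19.8. Over the 21 tested, the median log2 fold change was -0.05, with 0 calls by edgeR (1 at an unadjusted p under 0.05). Of 6 of these rows with an adjusted p from DESeq2, 1 was called as higher. The differences between these sets and the family were not tested.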

How the data were processed

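The authors prepared the libraries from serum bEVs with a kit that adds unique molecular identifiers (UMIs), used bcl2fastq 2.18.0.12 for base calls, as their processing notes list, and had the trimmed reads aligned by Qiagen's GeneGlobe service to miRBase and to mm10. The deposited values are unnormalized counts of each miRNA or piRNA, with nothing to state whether they are reads or UMIs. Near-identical members can exchange reads in such an alignment, and a merged row cannot be split.

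Features were kept by filterByExpr with its minimum count of 10, scaled by TMM and tested with edgeR 4.0.16 in R 4.3.3, with group as the only term and Benjamini-Hochberg adjustment over all tested features. DESeq2 1.42.0 and limma 3.58.1 served as alternatives, with other scalings, filters and libraries left out. CPM are counts scaled to 1000000 by the TMM-scaled library size. Intervals of fold changes used the total degrees of freedom of the edgeR test, which add prior to residual ones. Correlations used 100000 permutations in Python 3.11.15 with scipy 1.17.1. Hairpins were placed with GENCODE and RefSeq tables of GRCm38. The scripts' calling was tested on simulated data.

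Members and lists were chosen with earlier results of these data known. Named rows are the 12 tested members with the highest mean CPM, those with an unadjusted edgeR p under 0.05 or a call, the 4 highest and 4 lowest fold changes, and the most abundant row of each number and arm (18 rows). Each library is 1 mouse, and no pair of libraries agreed within sampling noise. The labels do not say that a number pairs mice, so no pairing was used. Same-numbered libraries of the 2 groups did not deviate together, which by itself cannot show that the mice were unpaired.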

Additional observations from a re-analysis of the deposited data

Results flagged for a closer look

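In groups of 6 libraries, 5 of the 38 groups examined (the 18 named rows and the family share, in each of the 2 groups) held a library set apart from the other 5 by a gap larger than Dixon's limit. Normally distributed values pass that limit in about 1 in 20 groups. CPM from few counts need not be normal, and the rows share libraries, so the 5 of 38 cannot be set against that rate. With T cells, replicate 1 had 488 CPM of miR-466i-3p, replicate 4 had 639 CPM of miR-467a-5p and replicate 5 had 758 CPM of miR-467d-5p. With medium, replicate 1 had 450.3 CPM of miR-466l-3p and 360 CPM of miR-467d-5p. The 5 values were each the highest of their group, and they come from 4 libraries.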

How the results depend on the processing

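Counts per member were few, and this limits every value here. No member was called in the 36 alternatives in which members were tested (range 0 to 0 with 1 library left out). With edgeR and limma, 0 features of any kind were called in these alternatives, so these fits do not set the members apart from other features. DESeq2 called 8 to 68 features in its fits, in which 212 to 1995 features had an adjusted p. DESeq2 could call few members, however, because with its filters it gave 2 members an adjusted p on all libraries, 1 to 6 members in 10 of the 13 fits with libraries left out, and none without T cell replicate 2, medium replicate 5 or medium replicate 6. A filter of at least 50 counts in at least 6 libraries left no member. Summing members by seed was not run, because sequences were found for only 7 of the 64 names and for none inside Sfmbt2. No hairpin had enough counts in both arms for the arm ratio. The fits of DESeq2 with libraries left out, and the family share without T cell replicate 2 and medium replicate 3, were chosen after seeing the data. The median log2 fold change of the tested members moved to -0.36 with total counts and ran from -0.21 to 0.039 with 1 library left out. The labels number both groups from 1 to 6 without saying that a number pairs mice, and 1 T cell library and 0 medium libraries resembled their own number most (correlations from -0.197 to 0.084). With the replicate block, 0 members were called and the median was -0.15. The difference in family share ran from -0.119 to -0.0329 percentage points with 1 library left out.

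Of 17 tested named rows, 9 kept their direction in every alternative in which they were fitted. The other 8 had values near 0. With total counts, the log2 fold changes were -0.16 for miR-297a-3p/miR-297b-3p/miR-297c-3p, -0.13 for miR-467a-5p, -0.22 for miR-467f, -0.18 for miR-669a-5p/miR-669p-5p and -0.18 for miR-669j. With the replicate block they were -0.21 for miR-297a-3p/miR-297b-3p/miR-297c-3p, -0.10 for miR-669a-5p/miR-669p-5p and -0.012 for miR-669j. limma voom gave 0.022 for miR-297b-5p and 0.10 for miR-669i, and upper quartile scaling gave -0.024 for miR-669a-5p/miR-669p-5p. Without T cell replicate 2 and medium replicate 3 together, edgeR gave 0.12 for miR-466i-3p and 0.31 for miR-669i, and DESeq2 gave 0.12 and 0.31 for the same rows. With 1 library left out, the fold changes ran from -0.22 to 0.33 for miR-297a-3p/miR-297b-3p/miR-297c-3p, from -0.28 to 0.10 for miR-297b-5p, from -0.50 to 0.13 for miR-466i-3p and from -0.15 to 0.38 for miR-467a-5p. They ran from -0.14 to 0.24 for miR-467f, from -0.32 to 0.63 for miR-669a-5p/miR-669p-5p, from -0.35 to 0.17 for miR-669i and from -0.21 to 0.23 for miR-669j. The cause of these changes was not tested.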
